A study of Mus musculus with 3 samples.

Results

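The MAP kinase cascade kinases were described here as the genes with at least 1 protein-coding transcript whose symbol is Map4k, Map3k, Map2k, Mapk or Mapkapk followed by a number. The rule gave 46 of the 21901 protein-coding genes in the tables: 5 Map4k, 18 Map3k, 7 Map2k, 13 Mapk and 3 Mapkapk genes. Macrophages were grown from C57BL/6J bone marrow and given lipid A, the lipopolysaccharide moiety bound by TLR4, at 100 ng/ml for 15 min, and RNA of their chromatin fraction was sequenced. The samples form 1 group of 3 biological replicates that share a donor label, so the SDs below may be smaller than those between animals. No unstimulated library was analysed here. Replicate 1 was made from 1 µg of RNA, replicate 2 from 250 ng and replicate 3 from 500 ng. Values per library below are given for replicates 1, 2 and 3 in that order, and TPM stands for transcripts per 1000000, a level already divided by transcript length.

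A MAP kinase cascade is a relay of protein kinases. A MAP kinase kinase kinase (Map3k genes) phosphorylates a MAP kinase kinase (Map2k genes), which phosphorylates a MAP kinase (Mapk genes) on a threonine and a tyrosine of its activation loop. The Ste20-type Map4k kinases can act above the relay, and the Mapkapk kinases are substrates below it. In macrophages TLR4 signals through this relay to ERK, JNK and p38, and the outputs include the transcription of immediate early genes and the stability and translation of cytokine mRNA such as that of Tnf. The kinases are regulated largely by phosphorylation, which RNA does not measure. RNA on chromatin is nascent or still held at the gene.

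The MAP kinase branches differ in the middle residue of the threonine-x-tyrosine motif, and the stretches below are shown because the levels that follow are grouped by this motif. Each is the coding sequence of a mouse transcript of GENCODE M21, 5′ to 3′, from the codons of the conserved Asp-Phe-Gly to the codons after the motif, with the motif's 3 codons in capitals.
Mapk3: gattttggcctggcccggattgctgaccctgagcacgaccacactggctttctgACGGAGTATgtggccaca
Mapk7: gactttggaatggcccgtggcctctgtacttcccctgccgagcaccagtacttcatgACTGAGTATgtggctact
Mapk8: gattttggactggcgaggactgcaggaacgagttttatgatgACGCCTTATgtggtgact
Mapk9: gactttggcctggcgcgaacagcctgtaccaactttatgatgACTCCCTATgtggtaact
Mapk14: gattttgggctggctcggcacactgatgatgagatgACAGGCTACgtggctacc
Mapk11: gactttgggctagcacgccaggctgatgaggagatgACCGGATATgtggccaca
Mapk6: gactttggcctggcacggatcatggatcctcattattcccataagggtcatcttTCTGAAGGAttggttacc
The ERK genes Mapk3 and Mapk7 hold a GAG glutamate codon in the middle of the motif, which starts at codon 203 in Mapk3 and 219 in Mapk7. The JNK genes Mapk8 and Mapk9 hold the proline codons CCT and CCC there, with the motif at codon 183 in both. The p38 genes Mapk14 and Mapk11 hold the glycine codons GGC and GGA, with the motif at codon 180. Mapk6, the atypical kinase ERK3, has a serine codon, GAA and a glycine codon at codon 189, and so lacks the tyrosine.

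All 12 macrophage marker genes were at 1 TPM or more in each library of the gene table, with a summed level of 1931, 1419 and 2027 TPM. In that table none of the 10 neutrophil, 6 T and NK cell, 5 B cell, 4 mast cell, 6 stromal and 4 erythroid marker genes was, and the highest sum of any of these lists was 2.49 TPM. In the second quantification, another estimate deposited for the same libraries, 2 T and NK cell and 2 stromal markers were at 1 TPM or more in each library: Cd3d at 16.7, 11.5 and 20.2 TPM, Cd8a at 5.05, 2.37 and 4.21 TPM, Pecam1 at 5.56, 4.79 and 6.92 TPM, and Col1a1 at 1.62, 1.17 and 1.74 TPM. Whether this bears on the kinase levels was not tested. The gene tables held 10974934, 21376404 and 14376665 expected counts, of which the 46 kinases took 27166, 41787 and 33401. Protein-coding genes took 23.9%, 16.6% and 25.3% of all TPM, so comparisons between libraries below use TPM rescaled to a sum of 1000000 over protein-coding genes, called scaled TPM.

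Transcripts of most cascade kinases were present on chromatin. Of the 46, 36 were at 1 TPM or more in all 3 libraries, against 42.6% of protein-coding genes. In bulk RNA a smaller share of expressing cells and less RNA per cell cannot be told apart, so a level is an average over the culture. The median kinase was at 14.0, 10.2 and 16.7 TPM, a mean of 13.6 ± 3.23 TPM (SD, n = 3), against 0.600, 0.380 and 0.700 TPM for the median protein-coding gene. The 5 highest kinases, with Map4k4, Map3k8 and Mapk6 in front, held 34.9% ± 5.40 of all the kinases' TPM (SD, n = 3). At the other end, 8 kinases were under 1 TPM in every library and 2 of these, Map3k21 and Mapk4, had no count in the gene table.

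**Figure D1:**
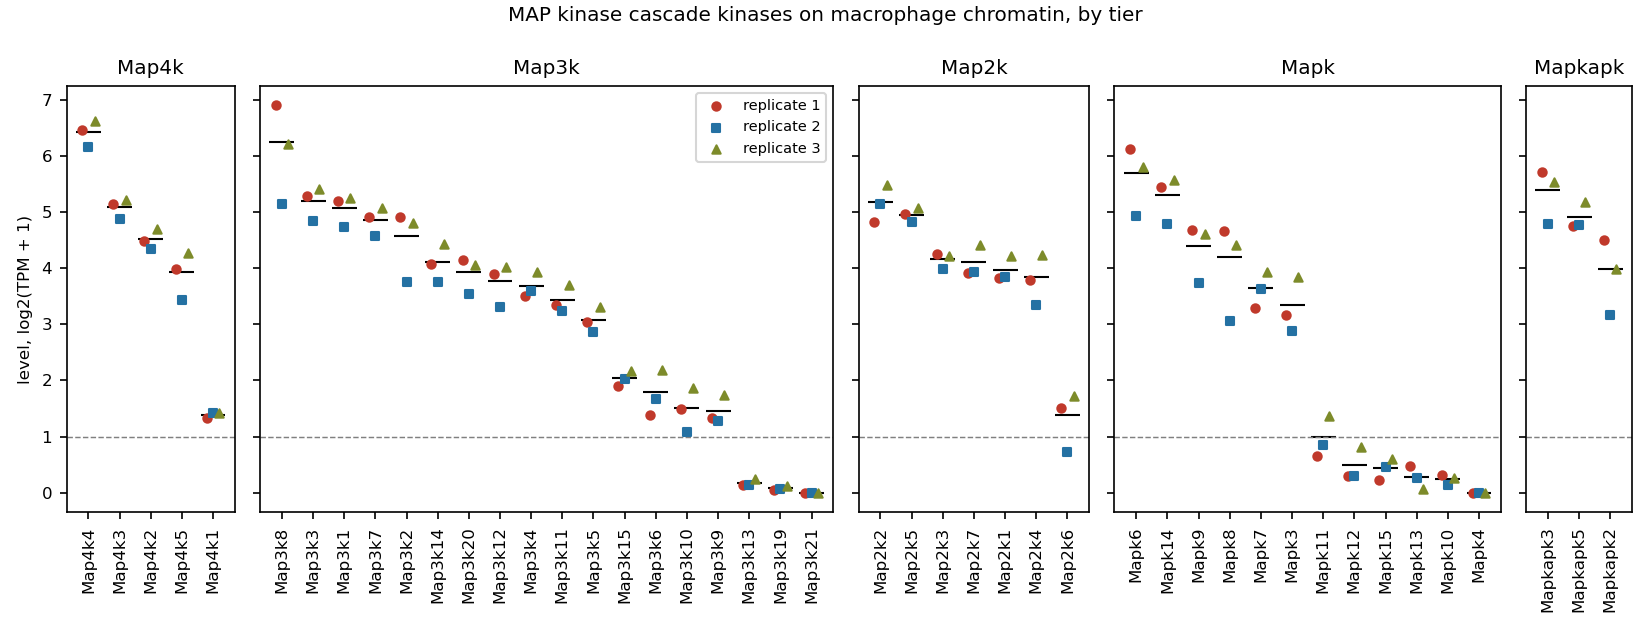
Level of the kinases on a log2(TPM + 1) scale, in panels by tier; points are the 3 libraries, the black bar marks the mean TPM and the dashed line marks 1 TPM. Map4k4 and Map3k8 stand highest, and Mapk11, Mapk12, Mapk15, Mapk13, Mapk10 and Mapk4 lie near or below the line in the Mapk panel.

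All 5 Map4k kinases were detected, and the median of the tier was 21.9 ± 2.84 TPM (SD, n = 3). Map4k4, a Ste20-type kinase that acts upstream of JNK and lies at chr1:39900913-40026310, was at 87.4, 70.9 and 98.3 TPM. It was the highest of the 46 by mean, at 85.5 ± 13.8 TPM (SD, n = 3), although Map3k8 was above it in replicate 1. Map4k3 was at 34.6, 28.4 and 36.5 TPM and Map4k2 at 21.4, 19.3 and 24.9 TPM, so the 3 leading genes of the tier did not overlap between libraries. Map4k5 followed at 14.9, 9.78 and 18.3 TPM, from counts that were not whole numbers. Map4k1, the haematopoietic kinase known for restraining T cell receptor signalling, was lowest at 1.50, 1.67 and 1.68 TPM.

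The Map3k tier runs from Map3k8 to a gene with no count. Map3k8 encodes TPL2, the kinase through which TLR4 activates MEK and ERK in macrophages, and lies on chromosome 18. It was at 119, 34.3 and 73.8 TPM, from 2624, 1824 and 1904 expected counts. Its rank among the 46 was 1 in replicate 1, 3 in replicate 2 and 2 in replicate 3. Its SD of 42.4 around a mean of 75.8 TPM (n = 3) was the largest in the family, and its spread is taken up again below. TPL2 is held in an inactive complex by the NF-kB precursor p105 and by ABIN-2. The genes of these partners, Nfkb1 and Tnip2, were at 50.3, 36.6 and 58.3 TPM and at 40.2, 33.5 and 47.7 TPM.

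Next in the tier came Map3k3, or MEKK3, at 38.3, 27.6 and 41.6 TPM, and Map3k1, or MEKK1, at 35.9, 25.6 and 37.2 TPM. Their values overlapped across libraries. Map3k7 encodes TAK1, which activates the IKK, JNK and p38 branches below TLR4, and stood at 29.1, 22.9 and 32.7 TPM. Map3k8 was above Map3k7 in each library, by 4.09, 1.50 and 2.26 times. The second quantification placed it above Map3k7 in 2 of 3. Map3k14, which encodes the non-canonical NF-kB kinase NIK, was at 15.9, 12.6 and 20.7 TPM. Map3k2, or MEKK2, which with MEKK3 acts on the ERK5 branch, was at 29.1, 12.5 and 27.0 TPM. The stress-activated kinases ZAK, MEKK4 and ASK1, encoded by Map3k20, Map3k4 and Map3k5, averaged 14.4 ± 3.23, 11.9 ± 2.01 and 7.50 ± 1.37 TPM (SD, n = 3 each). Map3k12, which encodes DLK, averaged 12.6 ± 3.31 TPM, and the ASK1 relatives Map3k15 and Map3k6 averaged 3.10 ± 0.372 and 2.45 ± 0.987 TPM (SD, n = 3 each). The mixed-lineage kinase genes Map3k9, Map3k10 and Map3k11 averaged 1.76, 1.86 and 9.85 TPM, and the fourth of the family, Map3k21, was not detected. At these depths a count of 0 allows up to 0.0402, 0.0174 and 0.0351 TPM for Map3k21 (3 counts, counting error only). Map3k19 was near the floor at a mean of 0.0533 ± 0.0321 TPM (SD, n = 3), from 2, 4 and 5 expected counts. Map3k13 was low but above its floor in the gene table, at 0.127 ± 0.0462 TPM (SD, n = 3), from 11, 26.3 and 24.0 expected counts. Its mean was 0.714 TPM in the second quantification, and its exons overlap a higher gene on the same strand. Of the 18 Map3k genes 15 were detected, and the median was 10.5 ± 2.31 TPM (SD, n = 3).

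Among the Map2k kinases, 6 of 7 were detected, with a median of 15.4 ± 2.15 TPM (SD, n = 3). The 2 MEK genes of the ERK branch were unequal: Map2k2 was at 27.5, 34.5 and 43.9 TPM and Map2k1 at 13.2, 13.5 and 17.7 TPM. Map2k2 was 2.09, 2.56 and 2.48 times Map2k1, and the groups of 3 values did not overlap. By protein-coding isoforms alone Map2k2 stayed above Map2k1 in each library, at 7.26, 14.5 and 15.25 TPM against 5.53, 5.67 and 7.58 TPM. Their values overlapped there. Map2k5, the kinase of ERK5, was at 30.3, 27.3 and 32.7 TPM, overlapping the values of Map2k2. By protein-coding isoforms alone Map2k5 was at 21.9, 23.6 and 27.9 TPM, above Map2k2 without overlap. The p38 kinases were also unequal. Map2k3 was at 18.01, 14.9 and 17.7 TPM, whereas Map2k6 was at 1.83, 0.660 and 2.30 TPM, from 44, 38 and 53 expected counts. The JNK kinases Map2k4 and Map2k7 were close, with Map2k4 at 12.9, 9.16 and 17.9 TPM and Map2k7 at 14.1, 14.2 and 20.4 TPM. Map2k4 was at 0.910, 0.645 and 0.878 times Map2k7, but at 3.02, 1.63 and 2.35 times it in the second quantification, so their order is not settled by these files.

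In the Mapk tier, 7 of 13 genes were detected, and the median was 9.20 ± 3.62 TPM (SD, n = 3). Mapk3, which encodes ERK1, was at 7.94, 6.38 and 13.3 TPM. Mapk7, which encodes ERK5, was at 8.85, 11.3 and 14.3 TPM, overlapping the values of Mapk3.

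The 4 p38 genes lie in 2 neighbouring pairs. Mapk14, which encodes p38α, lies at chr17:28691329-28748406 next to Mapk13 at chr17:28769297-28780233. Mapk12 lies at chr15:89130584-89140703 next to Mapk11 at chr15:89142486-89149628. Mapk14 was at 42.8, 26.6 and 46.7 TPM and made up 96.0% ± 1.14 of the summed p38 TPM (SD, n = 3). Mapk11, which encodes p38β, was at 0.580, 0.810 and 1.59 TPM. Mapk12 was at 0.230, 0.230 and 0.760 TPM and Mapk13 at 0.390, 0.190 and 0.0500 TPM, from 1 to 16 expected counts in a library. Between the neighbours Mapk14 and Mapk13 the values did not overlap, while Mapk11 and Mapk12 were both low.

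The JNK branch was shared by both broadly expressed genes. Mapk8, which encodes JNK1, was at 24.3, 7.37 and 20.4 TPM and Mapk9, which encodes JNK2, at 24.6, 12.4 and 23.5 TPM. Mapk9 was 1.01, 1.68 and 1.15 times Mapk8, and their values overlapped across libraries. Mapk10, the JNK3 gene known from neurons, had 0.482% ± 0.0259 of the summed JNK TPM (SD, n = 3). Mapk6 was at 68.8, 29.4 and 54.9 TPM, the highest mean of the tier in the gene table, also from counts that were not whole. Mapk14 was above it by mean in the second quantification, at 97.3 TPM against 77.8 TPM, and by coding isoforms alone, at 26.7 TPM against 12.3 TPM. Mapk4, a close relative of Mapk6, had no count in the gene table, but the second quantification gave it 0.465, 0.168 and 0.317 TPM from 32.2, 31.4 and 30.3 estimated counts. Mapk15 was at 0.170, 0.380 and 0.520 TPM.

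The 3 Mapkapk kinases were all detected. Mapkapk2 and Mapkapk3 encode MK2 and MK3, which p38 activates and which act on the stability and translation of AU-rich cytokine mRNA. Mapkapk3 was at 51.5, 26.8 and 45.8 TPM and Mapkapk2 at 21.8, 8.02 and 14.9 TPM. Mapkapk3 was 2.36, 3.34 and 3.08 times Mapkapk2, and the lowest of Mapkapk3 was above the highest of Mapkapk2. The second quantification kept that order in each library, at 1.19, 1.90 and 2.14 times. By protein-coding isoforms alone their values overlapped, with Mapkapk3 at 16.25, 11.2 and 15.1 TPM and Mapkapk2 at 21.8, 8.03 and 14.9 TPM. Mapkapk2 was the higher of the pair there in replicate 1. Mapkapk5, which encodes MK5, a partner of ERK3, was at 25.9, 26.3 and 35.3 TPM, from counts that were not whole.

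Other genes of the cascades were present as well. Of 50 listed genes, 39 were detected: 12 of 16 GTPases and exchange factors, 7 of 9 genes of the RAF family and ERK scaffolds, 5 of 5 MAP3K partners, 3 of 6 JNK and p38 scaffolds, 4 of 5 further Ste20 kinases, 7 of 8 MAPK-activated kinases and the atypical kinase Nlk. The highest was Mknk1, a kinase of the cap-binding protein eIF4E that ERK and p38 activate, at 159, 109 and 163 TPM, above every one of the 46 kinases in each library. Mapk8ip3 and Spag9, which encode the JNK scaffolds JIP3 and JIP4, were at 116 ± 19.4 and 102 ± 17.3 TPM (SD, n = 3 each). The Ste20-type kinase genes Taok3 and Mink1 were at 93.7 and 56.8 TPM. Rps6ka6 had no count, and Mapk8ip2 and Rasgrp1 averaged 0.0100 and 0.0433 TPM.

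Next, the libraries were compared with each other for the 37 kinases with a mean of at least 1 TPM. A kinase was called where its highest and lowest library differed 2-fold or more on log2(scaled TPM + 1). This held for 3 of 37, against 16.1% of the 10235 protein-coding genes over the same limit. The median range was 0.51 on the log2 scale for the kinases and 0.55 for these protein-coding genes. The 3 were Map3k8 at 499, 206 and 292 scaled TPM, Mapk8 at 102, 44.3 and 80.9, and Map2k6 at 7.67, 3.97 and 9.10. Replicate 2 was lowest for each of them. Without replicate 2 no kinase was called, and without replicate 1 only Map2k6 was. The share of protein-coding genes was not computed without 1 replicate. Map3k3 and Map3k1 had the smallest ranges, with Map3k3 at 161, 166 and 164 scaled TPM.

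**Figure D2:**
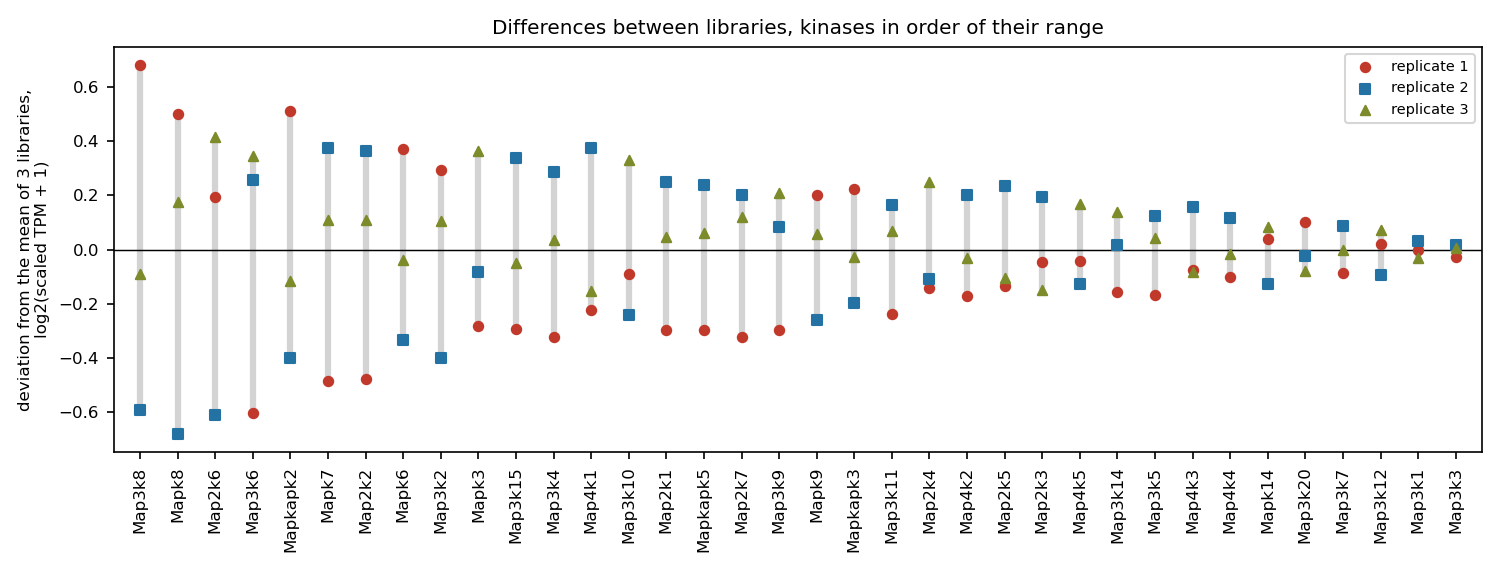
Deviation of each library from the mean of the 3 libraries on log2(scaled TPM + 1), for kinases with a mean of at least 1 TPM, in order of range; grey bars join the lowest and highest library. Map3k8 and Mapk8 have their highest value in replicate 1 and their lowest in replicate 2, whereas Mapk7 and Map2k2 show the opposite order.

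The kinases did not all differ between libraries in the same direction. On the scaled values, 14 of 37 were higher in replicate 1 than in replicate 2, against 53.2% of protein-coding genes. Mapkapk2 was among them, at 91.4, 48.2 and 58.9 scaled TPM. Mapk7, at 37.1, 68.0 and 56.4 scaled TPM, Map2k2, at 115, 207 and 173, and Map3k6, at 6.79, 13.1 and 14.0, were lowest in replicate 1. These 3 were lowest in replicate 1 under each of the 5 scalings used, and Map3k8, Mapk8 and Mapkapk2 were highest in replicate 1 and lowest in replicate 2 under each. The TPM as deposited shifts the median protein-coding gene by 0.11, -0.36 and 0.26 from the mean of the libraries on the log2 scale. Relative to that shift, Map3k8 deviated by 0.71, -0.59 and -0.12.

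The size of the Map3k8 difference depends on the unit. Its highest library was 2.42 times its lowest in scaled TPM, 2.00 times in counts scaled with TMM, 1.95 times in counts divided by DESeq2 size factors and 2.08 times in the second quantification. On the log2(value + 1) scale used for calls, the call was lost in both count scalings, in which Map3k6 and Mapk7 were called in its place, as were Map2k2 and Map4k1 with DESeq2 size factors. Of the 5 scalings, Mapk8 was called in scaled and in deposited TPM only, and Map2k6 in scaled TPM only. The share of protein-coding genes called was computed in scaled TPM only.

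For Map3k8 and Mapk8, the library difference lay mostly in the estimates for transcripts of the retained-intron class. This class holds annotated models in which part of an intron is kept and which carry no coding annotation. In chromatin RNA, intron reads of RNA not yet spliced and reads of such models cannot be told apart here. The protein-coding isoform of Map3k8 was at 77.1, 67.3 and 75.6 scaled TPM, a highest-to-lowest ratio of 1.15. Its retained-intron isoforms were at 422, 138 and 212 scaled TPM, a ratio of 3.06. The second quantification gave 67.9, 57.2 and 65.2 for the coding isoform and 228, 83.0 and 116 for the retained-intron isoforms. Starting RNA, 1 µg, 250 ng and 500 ng, has the same order as the retained-intron and the coding values, and depth in counts has the reverse order. Starting RNA and depth cannot be told apart here, and their part in these values was not tested.

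The leading Map3k8 model was Map3k8-203, of 2048 bases in 2 exons, which runs into intron 2 of the 7 introns of the coding model Map3k8-201. It was at 74.8, 15.6 and 38.2 TPM, against 18.4, 11.2 and 19.1 TPM for Map3k8-201. A further retained-intron model, Map3k8-204, was at 26.0, 7.38 and 15.3 TPM. Counted by protein-coding isoforms alone, Map3k8 ranked 8 among the 46 at 16.2 ± 4.38 TPM (SD, n = 3), behind Map4k4, Mapk14 and Map2k5 among others. That ranking was made after the data were seen.

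Mapk8 showed the same split less sharply. Its coding isoforms were at 25.1, 16.1 and 26.8 scaled TPM, a ratio of 1.67, and its retained-intron isoforms at 75.9, 27.3 and 54.0, a ratio of 2.78. Across the 26 of the 37 kinases that have a retained-intron model, the retained-intron level ranged more than the coding level in 17, against 52.6% of protein-coding genes. The retained-intron level was higher in replicate 1 than in replicate 2 in 16 of 26, against 58.8%, and the coding level in 7 of 26, against 38.7%. Map2k2 was an opposite case, with coding isoforms at 30.4, 87.0 and 60.3 and retained-intron isoforms at 79.5, 114 and 104 scaled TPM. On coding isoforms alone Map2k2, Mapkapk5 and Map3k6 passed 2-fold, which is 3 of 37 against 24.1% of protein-coding genes.

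**Figure D3:**
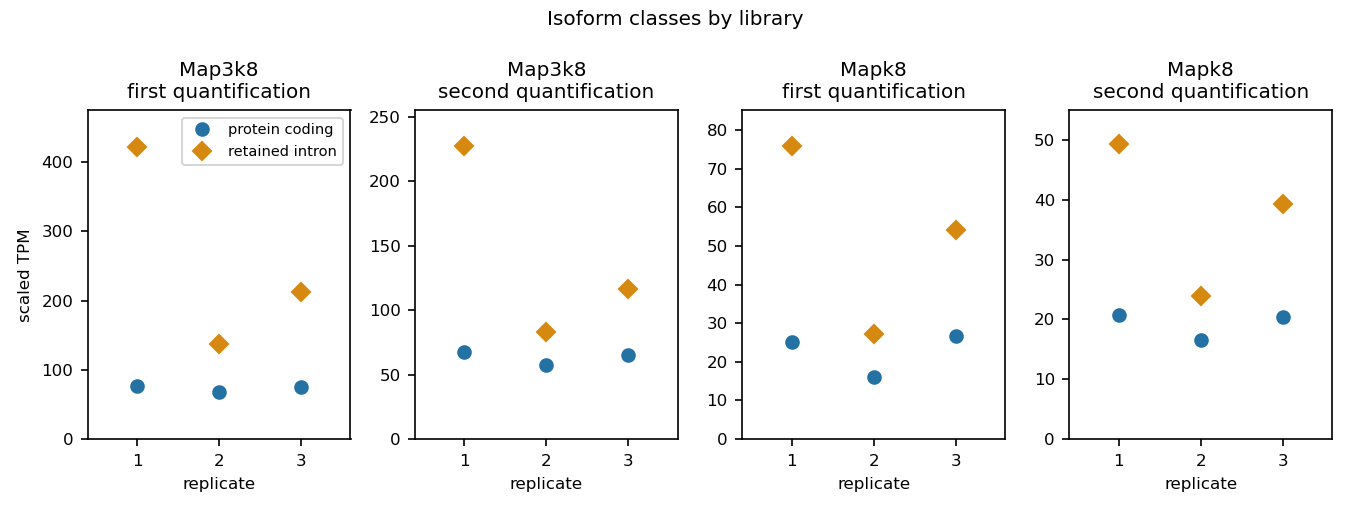
Scaled TPM of protein-coding isoforms (circles) and retained-intron isoforms (diamonds) of Map3k8 and Mapk8 in each library, in the first and the second quantification; the vertical axes start at 0 and differ between panels. The coding values of Map3k8 lie close together while its retained-intron values are highest in replicate 1 and lowest in replicate 2.

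Retained-intron models, with any unspliced RNA assigned to them, held a large part of the family's level. They took 46.0%, 36.1% and 40.0% of the kinases' TPM, a mean of 40.7% ± 4.96, against 39.4% ± 2.53 over all protein-coding genes (SD, n = 3 each). In expected counts, which are not divided by length, the share was 23.9% ± 4.64 for the kinases and 25.1% ± 3.71 for protein-coding genes. The share of the Map4k tier was 59.1% ± 4.79 of TPM and that of the Mapkapk tier 25.3% ± 2.56, but in expected counts they were 35.3% ± 5.26 and 36.8% ± 0.559 (SD, n = 3 each). In 23 of 26 kinases with such a model the share was higher in replicate 1 than in replicate 2, against 68.2% of protein-coding genes. The share reached 50% in 12 of 26, against 45.9%.

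By gene, among kinases with a mean of at least 1 TPM, Map3k8 had the largest retained-intron share in the first quantification, at 74.6% ± 9.06 of its TPM (SD, n = 3). In the second quantification its share was 61.1%, below the 74.1% of Map4k2. In the first, Map2k3 followed at 72.0%, then Map4k5 at 69.5%, Mapk8 at 67.7%, Mapk6 at 65.1%, Map4k4 at 62.2%, Map2k2 at 61.2% and Map4k2 at 59.2%. Among those with a retained-intron model, Map2k7 had the smallest share of TPM at 4.39%, then Map4k1 at 13.2% and Map2k5 at 17.4%. In expected counts the share of Map3k5 was 0.939%, below the 1.26% of Map2k7. Among the large shares, Map3k8 was also highest in expected counts, at 64.5%, but Mapkapk3 was next at 61.7%. Mapk8, Map4k5 and Mapk6 were at 57.3%, 55.2% and 55.2% in that unit. Map2k3, Map4k2, Map2k2 and Map4k4 fell to 44.4%, 37.5%, 36.7% and 27.5%. Large and small shares of TPM occur within a single tier, as with Map2k3 and Map2k7.

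**Figure D4:**
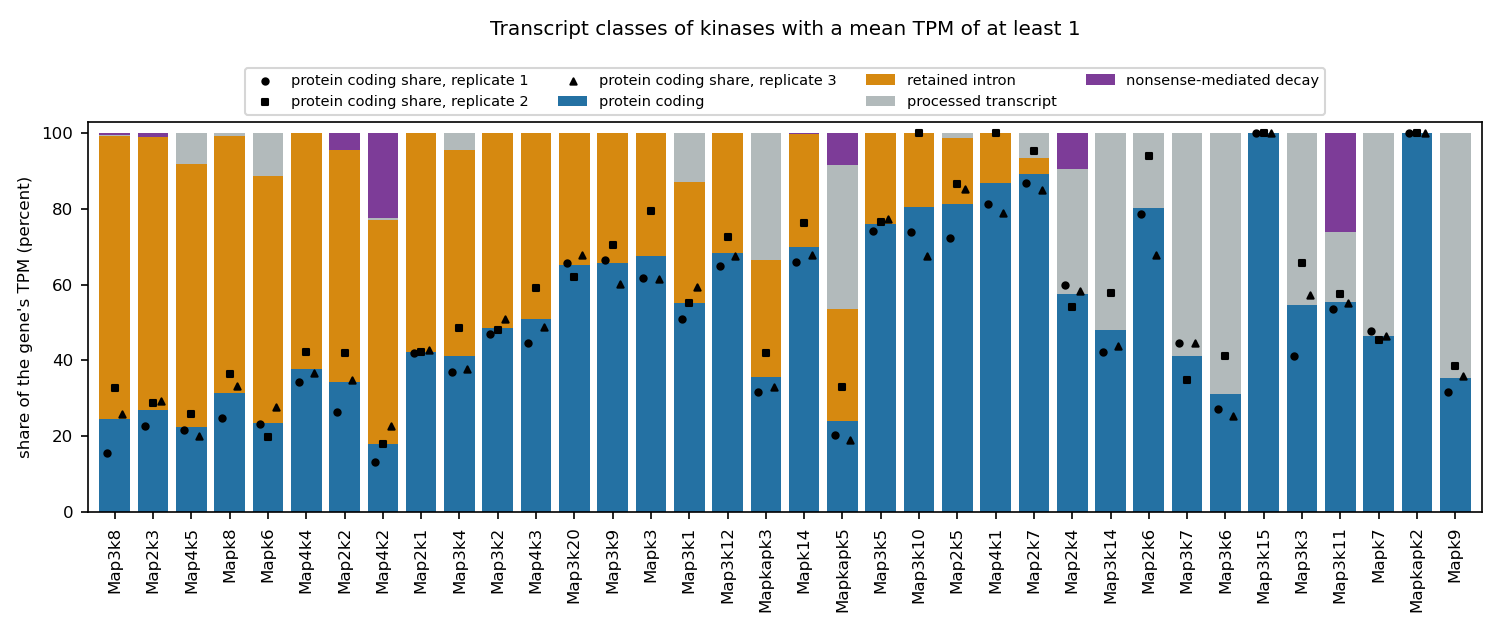
Share of each kinase's TPM by transcript class, as the mean of 3 libraries (stacked bars) for kinases with a mean of at least 1 TPM, in order of their retained-intron share; black symbols give the protein-coding share in each library. Of these, Map3k8 has the largest retained-intron share of TPM in the first quantification, 74.6%, and the 11 kinases at the right have no retained-intron model.

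The isoform model of highest estimated TPM was not a protein-coding one in any library for 10 of 37 kinases, against 26.5% of protein-coding genes. For Map3k8, Map4k4, Map4k5, Map2k1, Map2k2, Map2k3 and Mapk8 it was the same retained-intron model in each library. Mapk6 was led by the retained-intron model Mapk6-207 in replicate 1 and by Mapk6-204 in the others. Mapk9 was led by the processed transcript Mapk9-206, which took 48.0%, 39.9% and 44.8% of the gene. Mapkapk5 was led by a different model in each library. The leading models differ in how much of the gene they cover: Map4k4-212 has 1065 bases and reaches into intron 2, Map2k3-204 has 600 bases and reaches into intron 10, and Mapk8-211 is a single exon of 3529 bases over intron 7. When isoforms were ranked by expected counts, 5 kinases were led by a non-coding model. The share over protein-coding genes was not computed in that unit, so the lower count is not particular to the kinases. The leading isoform was the same in all 3 libraries for 25 of 37, against 60.7%.

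Both quantifications were compared for the 37 kinases. The second gave higher TPM in 35, as it did in 9621 of the 10235 protein-coding genes of the same limit. The median ratio was 1.60 over these genes and 1.63 over the kinases. The ratio was largest for Map2k4 at 3.96, Mapkapk2 at 3.92 and Map3k1 at 3.75. Map3k1 was at 154, 72.4 and 144 TPM in the second quantification, where it ranked 2 by mean, and Map3k8 ranked 5. Mapkapk2 was at 102, 25.9 and 47.0 TPM there. Its short coding model Mapkapk2-202, of 675 bases, was at 80.9, 16.6 and 30.5 TPM in the second quantification and at 9.54, 1.68 and 2.51 TPM in the first. For Map2k4 the processed transcript Map2k4-206 was at 26.2, 9.87 and 24.0 TPM against 4.04, 2.97 and 6.34 TPM. Mapk12 was under 1 TPM in the gene table but at 3.50, 2.38 and 4.93 TPM in the second quantification, 8.86 times higher by mean, with 90.3% of it on retained-intron models. Mapk14 was at 121, 62.0 and 66.4 times Mapk11 there, against 73.7, 32.8 and 29.4 times in the first quantification.

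**Figure D5:**
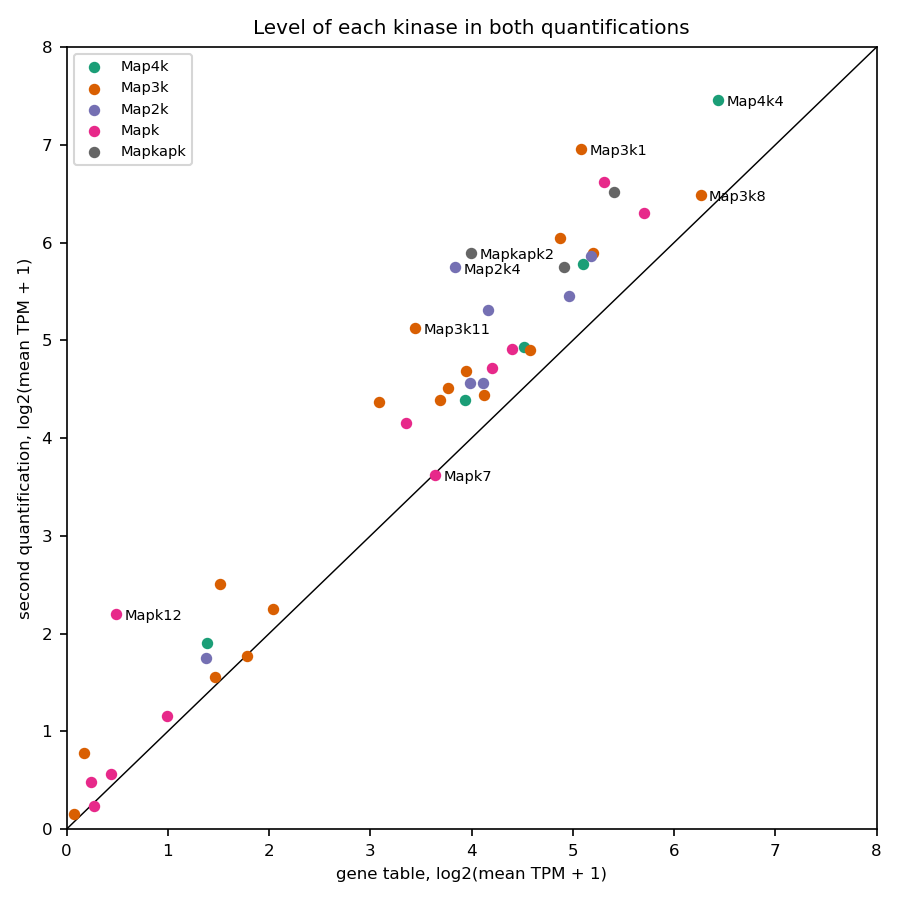
Mean level of kinases with a count on a log2(mean TPM + 1) scale, with the gene table on the horizontal axis and the second quantification on the vertical axis; colours mark the tiers and the line marks equality. Most kinases lie above the line, Mapk12 farthest from it in ratio, and Map3k8 and Mapk7 lie close to it.

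Reads of neighbouring or overlapping genes may bear on some of these levels. Exons of 13 kinases overlap another gene, 10 of them on the opposite strand, and the use of strand in counting is not given in the sources used here. Map3k11 overlaps Pcnx3, which was at 28.3, 55.5 and 60.8 TPM, Map3k12 overlaps Pcbp2 at 88.4, 44.9 and 84.7 TPM, and Map3k15 overlaps Pdha1 at 12.1, 8.43 and 13.0 TPM. On the same strand, Map3k13 overlaps the non-coding gene 1300002E11Rik, at 8.39, 2.82 and 6.78 TPM. Counts that were not whole numbers, as arise when reads are divided among genes, occurred in 9 kinases: Mapk6, Mapkapk5, Map2k7, Map4k5, Map3k12, Map3k11, Map3k15, Map3k10 and Map3k13. Whether these overlaps moved the levels was not tested.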

How the data were processed

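RNA-seq of ribosomal-RNA-depleted chromatin RNA was analysed in 3 libraries of 1 group, so no test between groups was made. Per the file headers, the deposited gene and transcript tables (the first quantification) hold expected counts, often fractional, and TPM, which the authors scaled to sum to 1000000 per library. The deposited transcript table also gives each isoform's percent of its gene. Estimated counts and TPM of another deposited transcript table (the second quantification) were summed by gene. Per the labels the build was mm10, and per the text deposited with the tables the gene models were GENCODE M21. The sources used here do not give the aligner, the counter or the use of strand.

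The 46 members were found by symbol and transcript class. The members and lists were chosen with earlier results of these data known. Detected means at least 1 TPM in all 3 libraries. Library ranges used log2(scaled TPM + 1), which understates differences of low genes, for genes whose mean TPM was at least 1, with a 2-fold limit. Genes named are the 3 highest and 2 lowest of each tier, Map3k8, the 8 largest ranges, the 8 largest and 3 smallest retained-intron shares, members led by a non-coding isoform, members differing 4-fold between quantifications, and 6 highest and 3 lowest other cascade genes. A member and another cascade gene that this rule takes are not reported here by name, in text or figures, but remain in all counts. Other members are named to complete a branch, and Nfkb1, Tnip2 and the overlapping genes as partners or neighbours.

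Expected counts rounded to whole numbers gave TMM factors (edgeR 4.0.16) and size factors (DESeq2 1.42.0) in R 4.3.3, used as scaling alternatives. The remaining computations ran in Python 3.11.15 (pandas 2.3.3, numpy 2.4.6, matplotlib 3.10.9). Libraries differed by more than sampling noise, with a chi-square per degree of freedom of 44.1 to 180, and none was a duplicate. Depth was 10974934 to 21376404 expected counts; 3 counts of a 1 kb gene were worth 0.221, 0.0948 and 0.191 TPM. Floors cover counting error only.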

Additional observations from a re-analysis of the deposited data

How the results depend on the processing

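The number of detected kinases was 31 to 40 under other limits, with the second quantification and without 1 replicate. The second quantification raised the median kinase to 22.9 TPM and the tier medians to 29.5 (Map4k), 20.6 (Map3k), 37.98 (Map2k) and 69.7 (Mapkapk) TPM, and lowered the retained-intron share to 32.9%; in expected counts that share was 23.9%. Rescaling put the median kinase at 62.0 and Map3k8 at 332 scaled TPM. Counting protein-coding isoforms only, an alternative chosen after seeing the data, gave 5.74 TPM for the median kinase, 16.2 TPM for Map3k8 and rank 8 for it. Map3k8 ranked 5 in the second quantification and 4 in TMM-scaled counts, which are not per length, and 1 to 2 without 1 replicate. The 2-fold count was 6 with TPM as deposited, 6 without the filter, and 0 to 2 without 1 replicate. The share of protein-coding genes was not computed under these settings, so these changes are not particular to the kinases. Ranked by expected counts, 5 kinases were led by a non-coding isoform, and the share over protein-coding genes was not computed in that unit. Rescaled values are in another unit, and coding-only values count fewer transcripts. The cause of the other shifts was not tested. The second quantification moved 34 of 44 values of single kinases, and 41 were higher. These 2 counts were not made over all protein-coding genes, most of which were also higher above 1 TPM. No paired analysis was possible because there is 1 group. Depth limits kinases near the floor, such as Mapk13 and Mapk15.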
